A study of Drosophila melanogaster with 6 samples.

Results

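Of the 1127 autosomal HMR peaks found in uninduced S2 cells, 279 (24.8%, 95% Wilson interval 22.3 to 27.4) overlapped no peak of the induced cells, and these 279 uninduced-only peaks are described here. They were chosen by their position in the 2 peak lists, as uninduced peaks on chromosomes other than X, Y and 4 that share no base with an induced peak. In the whole uninduced list, 26.6% of the 1424 peaks had no induced counterpart, so the autosomal share is close to that of the list. The other 848 autosomal uninduced peaks overlapped an induced peak and are called shared, and 728 of the 1576 autosomal induced peaks overlapped no uninduced peak and are called induced-only. The study asked where HMR binds the genome when it is overexpressed. S2 (SL2) cells, a line from late D. melanogaster embryos, carried stably transfected, Hygromycin-selected transgenes under the copper-switched promoter pMT, which the labels give as FLAG-HA-HMR and the methods as FLAG-HA-HMR with Myc-LHR. Induced cells received 250 μM CuSO4 for 20 to 24 h (2 ChIP libraries and 2 inputs), and uninduced cells with the same genotype label received none (1 ChIP library and 1 input). Both were precipitated with one rat antibody against HMR.

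Each condition is represented by 1 list of 200 bp peaks that gives positions alone, with no height, score or read count. The condition of each list was read from its name. Copper, the transgenes and the number of libraries changed together, so their effects on the lists cannot be told apart. Peaks of one list are not replicates, so shares carry Wilson intervals, differences between shares carry Newcombe intervals, both at 95% and both covering counting error alone, and no test was made. A share of 0 among the peaks is given with the share that 3 counts would make. Counts of 0 in the short gene lists are given without it, and no conclusion is drawn from them. The lists cannot show whether S2 markers are present.

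HMR (Hybrid male rescue) is a rapidly evolving MADF-domain protein of Drosophila. Its D. melanogaster allele is needed for the lethality of hybrid males with D. simulans, together with the D. simulans alleles of Lhr and gfzf. HMR forms a complex with LHR and the heterochromatin protein HP1a. The protein is known from centromeres, telomeres and pericentric heterochromatin, where it limits transposable element transcripts. Along the chromosome arms, HMR is known to sit beside insulator proteins, which bind short DNA motifs and partition chromatin. Su(Hw), CTCF and BEAF-32 are such DNA-binding insulator proteins, Motif 1 and the DNA replication-related element (DRE) are core promoter motifs of housekeeping genes, and the GAGA factor Trl binds GA repeats.

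The sequences that show these features are given on the plus strand of dm6, from the RefSeq copy of that assembly, 5′ to 3′, with the motif that put each one in the set in capitals. The first shows the uninduced-only peak nearest the top of the list, in an intron of kay (the Fos subunit of AP-1, chr3R:29786313-29786512), whose middle is richer in A and T than its flanks. The peak in an intron of the chromodomain helicase gene kis carries the 6-mer ACAGTG on each strand (chr2L:224951-225150).
kay: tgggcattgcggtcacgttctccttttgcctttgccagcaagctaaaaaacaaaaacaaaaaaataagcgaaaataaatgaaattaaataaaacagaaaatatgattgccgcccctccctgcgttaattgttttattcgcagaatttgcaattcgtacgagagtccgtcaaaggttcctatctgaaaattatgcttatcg
kis: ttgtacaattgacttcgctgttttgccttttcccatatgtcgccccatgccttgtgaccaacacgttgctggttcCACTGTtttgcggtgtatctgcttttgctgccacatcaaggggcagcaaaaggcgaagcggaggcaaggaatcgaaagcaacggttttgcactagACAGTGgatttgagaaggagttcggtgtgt
The following uninduced-only peaks carry a motif of a promoter or architectural protein: Su(Hw) near wb, a laminin gene (chr2L:14252360-14252559), DRE in cnc, the fly Nrf2 homologue (chr3R:23190015-23190214), Motif 1 near lncRNA:CR45174 (chr3L:23696488-23696687) and GAGA in the zinc finger gene mld (chr3R:24592613-24592812). The shared peak nearest the top of the list with a Su(Hw) match, closest to l(3)80Fj (chr3L:28091206-28091405), is placed after them for comparison. It lay 78707 bp from that gene's TSS and 18922 bp from the centromere-proximal end of 3L, and its sequence contains repeated stretches. It is a single example and does not stand for shared peaks with this motif as a set.
wb: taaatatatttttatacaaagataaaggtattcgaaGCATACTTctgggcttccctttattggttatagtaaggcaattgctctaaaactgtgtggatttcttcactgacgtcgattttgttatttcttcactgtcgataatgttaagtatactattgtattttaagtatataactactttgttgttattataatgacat
cnc: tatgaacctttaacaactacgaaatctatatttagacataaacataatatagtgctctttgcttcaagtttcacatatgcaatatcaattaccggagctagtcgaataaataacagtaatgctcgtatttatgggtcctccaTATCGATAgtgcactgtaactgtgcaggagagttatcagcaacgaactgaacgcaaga
lncRNA:CR45174: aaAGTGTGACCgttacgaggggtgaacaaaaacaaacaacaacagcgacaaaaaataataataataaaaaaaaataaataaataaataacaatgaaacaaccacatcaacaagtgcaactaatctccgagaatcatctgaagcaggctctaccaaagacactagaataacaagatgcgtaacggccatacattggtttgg
mld: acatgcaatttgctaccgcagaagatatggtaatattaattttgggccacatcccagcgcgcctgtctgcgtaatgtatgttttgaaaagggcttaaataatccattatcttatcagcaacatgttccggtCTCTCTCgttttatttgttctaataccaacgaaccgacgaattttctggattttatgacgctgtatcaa
l(3)80Fj: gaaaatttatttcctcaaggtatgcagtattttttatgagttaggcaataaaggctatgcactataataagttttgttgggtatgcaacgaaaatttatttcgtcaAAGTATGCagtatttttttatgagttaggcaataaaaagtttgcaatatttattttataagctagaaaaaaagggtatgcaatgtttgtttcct
The last sequence shows the upper end of base composition, the peak in an intron of Pli, the fly Pellino gene (chr3R:23864560-23864759), which had the highest GC content at 57.5%.
Pli: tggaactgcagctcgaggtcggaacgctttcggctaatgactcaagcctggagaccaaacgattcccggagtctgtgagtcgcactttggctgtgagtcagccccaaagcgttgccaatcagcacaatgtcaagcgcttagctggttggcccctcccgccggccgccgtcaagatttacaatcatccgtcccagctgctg

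The distance to induced peaks describes the rule that chose the peaks. The gap to the nearest induced peak had a median of 13807 bp (quartiles 5510 and 32188) and ran from 17 to 353899 bp. Under 200 bp, one peak width, lay 11 of the 279 gaps (3.94%), under 1000 bp lay 23 (8.24%), and under 50000 bp lay 238 (85.3%). Just inside the rule were the peaks at Sec61alpha, a subunit of the ER translocon (17 bp), CG8441 (36 bp), the deubiquitinase cofactor gene Asx (39 bp), snoRNA:U3:54Ab (68 bp) and the furin protease gene Fur1 (72 bp). Just outside it were shared peaks that overlapped an induced peak by 10, 12, 17, 21 and 27 bp, against a median overlap of 172 bp for all shared peaks. All 11 induced peaks within 200 bp were themselves induced-only, so at these sites each list placed 1 peak and the peaks lay side by side. The rule and the spacing of the list left little room for another outcome. A shared induced peak overlaps an uninduced peak, and the centres of autosomal uninduced peaks lay at least 461 bp apart. Of all 279 peaks, 161 (57.7%) had an induced-only peak as their nearest induced neighbour, while 46.2% of autosomal induced peaks were induced-only. The same spacing enters this comparison.

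**Figure D1:**
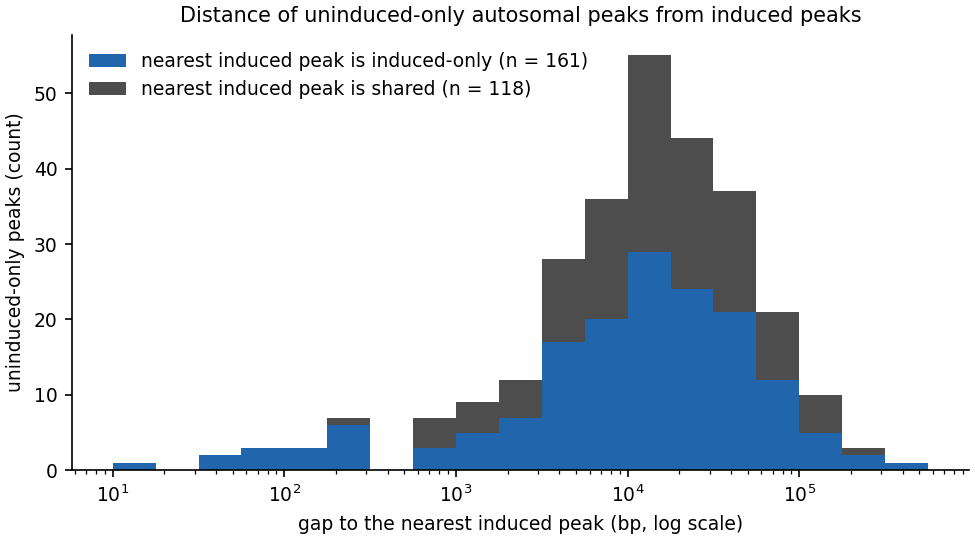
Gap in bp (log scale) from each of the 279 uninduced-only autosomal peaks to the nearest induced peak, with counts of peaks on the vertical axis, coloured by whether that induced peak was induced-only (161) or shared (118). The median is 13807 bp, and 16 gaps lie under 500 bp.

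At the far end stood a peak in an intron of Myo81F (353899 bp), whose GC content was 0%. Next came a peak in beat-Ib, a cell adhesion gene of the Beaten path family (258895 bp). Peaks in mld (194579 bp), near CG43401 (188955 bp) and at cl (153938 bp) followed. Within the uninduced list, spacing was similar for both classes. The next uninduced peak lay at a median of 27444 bp for uninduced-only peaks, against 27099 bp for shared peaks. For 75 of the 279 the next uninduced peak was also uninduced-only, a share close to the 24.8% of all autosomal uninduced peaks that were uninduced-only. In 7 of the 279, the next uninduced peak of either class lay within 1000 bp.

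The uninduced-only peaks lay low in the uninduced list. Their median line was 908 of 1424 (quartiles 664 and 1142, range 167 to 1412), against a median line of 526 for shared peaks. Cut into 10 equal parts in line order, the list held none among the 121 autosomal peaks of part 1, which allows a share of up to 2.48%, and 27 of 50 (54.0%, 40.4 to 67.0) in part 10. What the order of lines stands for is not given in the sources used here. The shares of TSS, intronic and intergenic peaks, the motif shares and the mean GC content were therefore also compared with the shared peaks weighted to the same spread over the 10 parts.

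**Figure D2:**
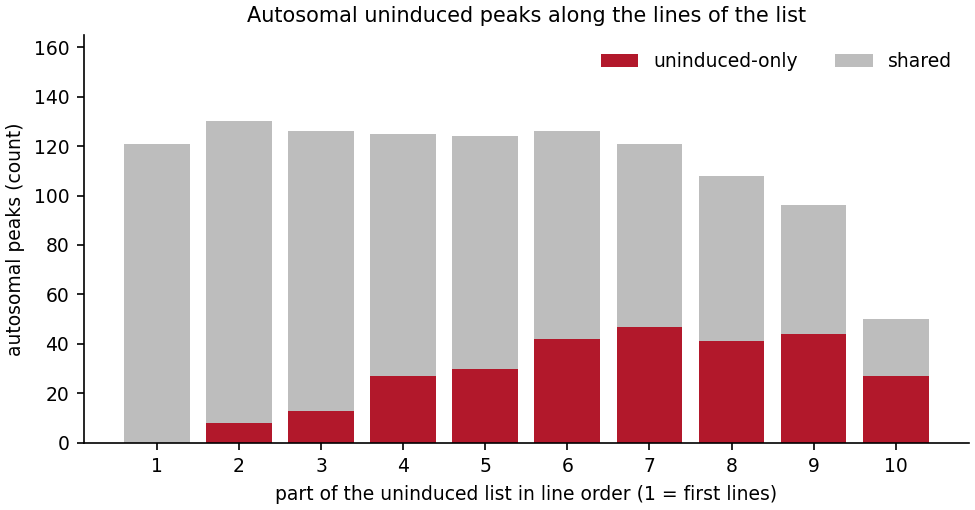
Autosomal peaks of the uninduced list (count) in 10 equal parts of its lines, from the first lines (1) to the last (10), split into uninduced-only and shared peaks. Uninduced-only peaks number 0 in part 1 and 27 of 50 in part 10.

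The 10 uninduced-only peaks nearest the top of the list lay mostly in introns. The intronic ones were in kay (line 167, 13319 bp from an induced peak), the RGS protein gene loco (line 178), bdg (line 197), the Src-family kinase gene Src64B (line 204, 637 bp from an induced peak), the FOG-type GATA cofactor gene ush (line 211), the La-related RNA-binding protein gene larp (line 285) and the homeobox gene Dbx (line 299, 611 bp from an induced peak). The other 3 lay between genes near CG43401 (line 198), in a 5′ UTR of nolo (line 277) and 120 bp upstream of the transcription start site (TSS) of Rab3GAP1, a subunit of the Rab3 GTPase activator (line 294).

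By genic position, the uninduced-only peaks had a higher share in introns than the other classes and a similar share within 250 bp of promoters. The centre lay within 250 bp of an annotated TSS in 145 of 279 peaks (52.0%, 46.1 to 57.8), against 50.6% of shared peaks, 51.6% of induced-only peaks and 7.63% of all 200 bp windows of the arms. The difference from shared peaks was 1.38 percentage points, with an interval of -5.36 to 8.08. Of all 279 peaks, 89 (31.9%, 26.7 to 37.6) lay away from a TSS in introns, against 163 shared peaks (19.2%, 16.7 to 22.0) and 117 induced-only peaks (16.1%, 13.6 to 18.9). This was 12.7 points above shared peaks (6.78 to 18.9) and 15.8 points above induced-only peaks (9.91 to 22.0), though below the 40.3% of all windows. Intergenic positions showed the reverse, with 37 uninduced-only peaks (13.3%, 9.78 to 17.7), 25.2% of shared peaks and 27.1% of induced-only peaks. The remaining 8 lay in 3′ UTRs (4), 5′ UTRs (2) and exons of other transcripts (2). None was centred in coding sequence, which allows a share of up to 1.08%, where 14.9% of all windows were in coding sequence away from a TSS.

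**Figure D3:**
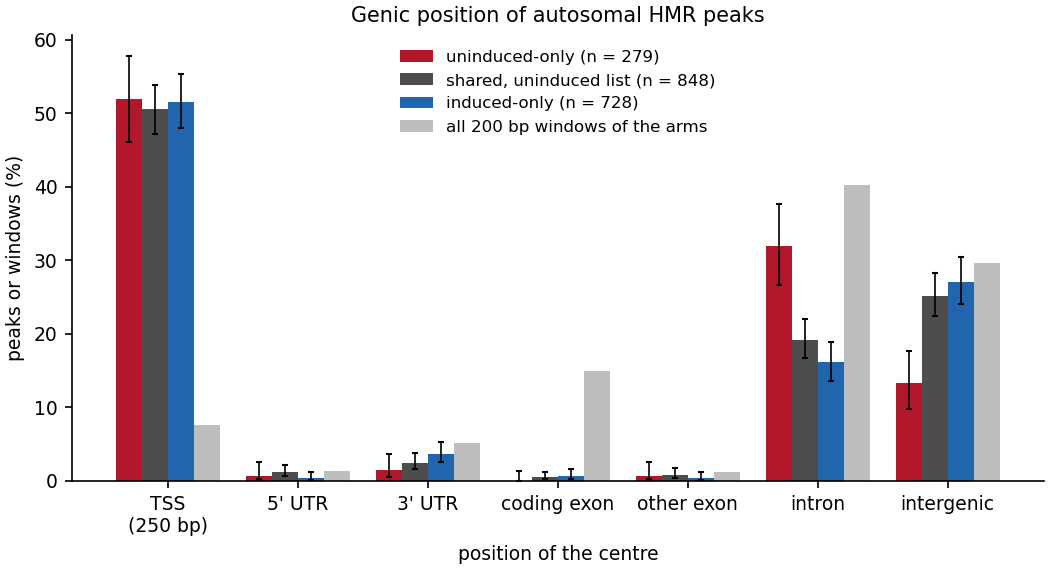
Share (%) of uninduced-only, shared and induced-only autosomal peaks, and of all 200 bp windows of the 4 arms, with their centre in each position class. Bars give shares and lines 95% Wilson intervals (none for windows). Uninduced-only peaks reach 31.9% in introns, against 19.2% for shared peaks.

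The excess in introns was present on 3 of the 4 arms. It was 34.8% of uninduced-only against 18.8% of shared peaks on 2L, 32.8% against 19.8% on 2R and 34.5% against 15.5% on 3R, while on 3L the shares were 24.2% and 23.0%. The arms held similar shares of uninduced-only peaks, namely 69 of 245 autosomal uninduced peaks on 2L (28.2%), 64 of 281 on 2R (22.8%), 62 of 284 on 3L (21.8%) and 84 of 317 on 3R (26.5%), or 2.21 to 2.93 per Mb. The genes that held the intronic peaks had a median length of 25447 bp, against 41464 bp for intronic shared peaks and 37765 bp for intronic induced-only peaks.

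At promoters, uninduced-only peaks lay further upstream than the other classes. Of the 145 peaks at a TSS, 128 (88.3%) were centred upstream of it, at a median of -123 bp (quartiles -168 and -78), against -94 bp (-138 and -42) for shared and -84 bp (-124 and -42) for induced-only peaks. A centre 100 bp or more upstream was found for 89 of 145 (61.4%, 53.3 to 68.9), against 46.9% of shared (42.2 to 51.6) and 37.8% of induced-only peaks (33.0 to 42.8). Accordingly, the share within 100 bp of a TSS was 19.4% for uninduced-only, 25.6% for shared and 31.5% for induced-only peaks, a difference from shared of -6.23 points (-11.4 to -0.459). TSSs on both strands within 500 bp, the arrangement of neighbouring genes transcribed apart or towards each other, were found for 31.5% (26.4 to 37.2) of uninduced-only, 25.7% (22.9 to 28.8) of shared and 19.2% (16.5 to 22.3) of induced-only peaks.

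The peaks were spread over 268 genes. A peak at a TSS took the gene of the nearest TSS. Any other peak took the gene that holds its centre or else the gene of the nearest TSS. For 263 of the 279 peaks that gene was protein-coding. Only 10 genes had more than 1 peak. Myo81F, a gene of 1965857 bp in the pericentromeric part of 3R, had 3, all intronic, with a GC content of 0%, 0% and 23.0%. The 2 peaks each of the capicua repressor gene cic (4583 and 12926 bp from an induced peak), kis (17570 and 35231 bp), the TSC22 family gene bun (8324 and 4310 bp) and HisT (30197 and 23150 bp) were also intronic. The formin gene Fhos, Fur1 and the TORC1 substrate gene PRAS40 each had 1 peak at a TSS and 1 in an intron. IntS3, a subunit of Integrator, and CG41099 had theirs between genes and were named as the nearest TSS alone. The IntS3 peaks lay 5840 and 18681 bp from its TSS, and the CG41099 peaks 824 and 101164 bp. The spans of cic, kis, Fhos and HisT held no induced peak, but an induced-only peak ended at 20252728, just upstream of the start of cic at 20252770.

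Gene lists drawn up with earlier results of these data known were counted as genes with a peak in their span or within 1000 bp of it. Over all 11669 protein-coding autosomal genes the share was 3.04% for uninduced-only, 8.08% for shared and 6.80% for induced-only peaks, the classes differing in size. Among 18 genes of insulator and architectural proteins, 5 had an uninduced-only peak, 6 a shared and 3 an induced-only peak. These were Chro, which encodes the chromodomain protein Chromator (58 bp from its TSS), Trl (intron), Cp190, which encodes an insulator cofactor (131 bp from the TSS of CG4338), and Ibf1 and Ibf2, which encode insulator binding factors and shared a single peak at chr3R:9258708-9258907. The 4 peaks concerned lay 14920 to 44169 bp from the nearest induced peak. Among 19 Polycomb and trithorax genes, 2 had an uninduced-only peak, kis and the Brahma complex gene osa. Of the 35 homeobox and segmentation genes listed, none had an uninduced-only peak, 3 had a shared and 1 an induced-only peak. This list did not include the homeobox gene Dbx, which held an uninduced-only peak (line 299). Of 8 copper-handling genes, 0 had an uninduced-only, 0 a shared and 2 an induced-only peak.

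The remaining lists had 1 gene each with an uninduced-only peak. These were ush of 22 hemocyte genes, the bZIP factor gene vri of 13 ecdysone response genes (5 with a shared peak), the EGF receptor ligand gene spi of 33 signalling genes (6 with a shared peak), the teneurin gene Ten-m of 25 cytoskeleton and adhesion genes, and Cp190 of 8 genes of the HMR complex and the centromere, none of which had a shared peak.

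Base composition set the uninduced-only peaks apart most clearly. The GC content of the 200 bp had a median of 33.0% (quartiles 28.2 and 39.8), against 35.5% for shared peaks, 37.5% for induced-only peaks and 42.5% for all windows. At TSSs the medians were 30.5%, 34.0% and 38.5%, and a 200 bp window from 250 to 50 bp upstream of protein-coding TSSs had a median of 37.0%. Away from TSSs they were 36.0%, 38.0% and 36.5%. Over 400 bp around the centre, the mean of uninduced-only peaks no longer lay below that of shared peaks (37.1% and 36.9%), so the low GC lay in the middle of the peak.

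The profile around the centre showed this directly. Mean GC of uninduced-only peaks was 32.7% at the centre and 40.8% already 150 bp to its left, whereas shared peaks had 36.8% at the centre on a broad trough, and induced-only peaks had 39.0% at the centre between troughs of 36.2% and 35.8% at 150 bp on either side. The GC of the central 101 bp was compared peak by peak with that of the 100 bp lying 150 to 250 bp away on both sides, a measure chosen after the profile was seen. Its median difference was -9.28 points (quartiles -17.7 and 0.0644) in uninduced-only peaks, -0.312 in shared and 2.11 in induced-only peaks. The centre was at least 10 points lower than the flanks in 129 of 277 uninduced-only peaks without gaps in the sequence (46.6%, 40.8 to 52.5), in 19.9% of shared (17.4 to 22.8) and in 11.8% of induced-only peaks (9.67 to 14.4). The difference from shared peaks was 26.6 points (20.2 to 33.1). Among the uninduced-only peaks printed above, the difference was -13.3 points in kay and -14.3 points in lncRNA:CR45174. The others showed no dip. The difference was 8.20 points in wb, 5.60 in mld, 5.40 in Pli and 9.50 in kis, and in cnc the centre was not lower than the flanks.

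**Figure D4:**
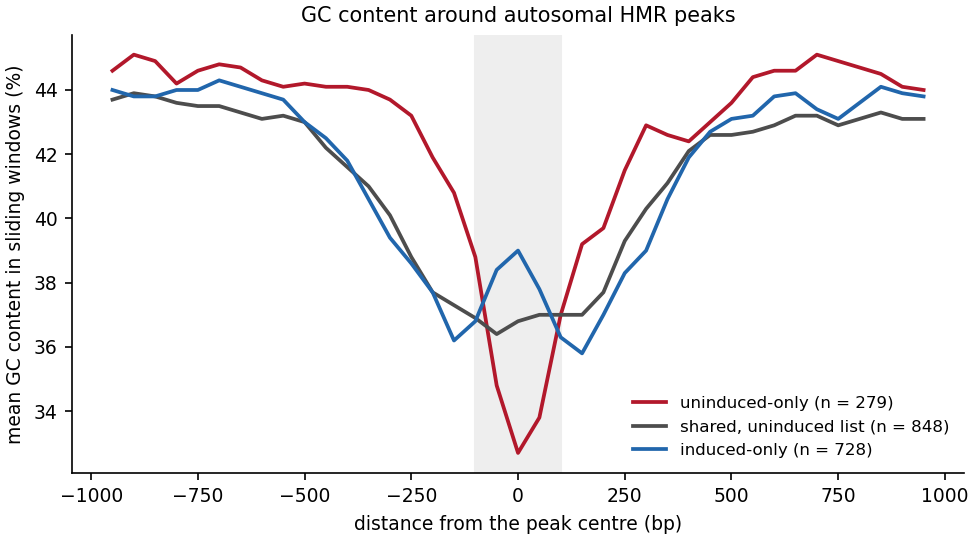
Mean GC content (%) in 101 bp windows from 1000 bp before to 1000 bp after the centre (distance in bp) of uninduced-only, shared and induced-only autosomal peaks; the grey band marks the 200 bp of the peak. Uninduced-only peaks show a narrow dip to 32.7%, while induced-only peaks rise to 39.0% at the centre.

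The dip was present in every subset examined. It reached 10 points in 55.9% of uninduced-only against 27.7% of shared peaks at TSSs and in 36.4% against 11.9% away from them. By arm, the shares were 47.8% against 21.0% on 2L, 42.2% against 13.8% on 2R, 48.4% against 21.6% on 3L and 47.6% against 23.2% on 3R. In the earlier 50% of the lines they were 44.9% against 17.2%, and in the later 50% they were 94 of 199 uninduced-only against 75 of 300 shared peaks.

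Over all positions, the Su(Hw) and CTCF motifs were less frequent in the uninduced-only peaks than in the other classes of peaks. The Su(Hw) core GCATACTT, matched exactly on either strand, was found in 11 of 279 (3.94%, 2.22 to 6.92), against 151 of 848 shared peaks (17.8%, 15.4 to 20.5), 8.38% of induced-only peaks and 0.884% of all windows. The difference from shared peaks was -13.9 points (-17.1 to -10.0). It had the same sign on all 4 arms, with 2.90% to 4.76% of uninduced-only and 16.3% to 19.4% of shared peaks. Away from TSSs the shares were 5.97% of uninduced-only, 29.1% of shared and 14.8% of induced-only peaks. At TSSs they were 2.07%, 6.76% and 2.39%, so there the uninduced-only share was close to that of induced-only peaks. Shared peaks with this motif stood high in the list, at a median line of 378, and with weighting by list part the shared share was 14.2%. The first uninduced-only peaks with a match were those near wb, near CG11044 and in Fur1, of which the wb and Fur1 peaks lay 245 and 72 bp from an induced peak.

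The CTCF core AGNTGGCGC was found in none of the 279, which allows a share of up to 1.08%, against 27 shared (3.18%) and 7.55% of induced-only peaks, with 0.573% of all windows. Motif 1 (GGTCACACT) was found in 4 (1.43%), against 1.53% of shared peaks (interval of the difference -1.48 to 2.18 points) and 6.04% of induced-only peaks. The difference from induced-only peaks was -4.61 points (-6.77 to -1.95). Its first matches were at lncRNA:CR45174, the splicing factor gene Sf3b6 and Sec61alpha. DRE (TATCGATA) was found in 8 (2.87%), 3.77% of shared and 6.46% of induced-only peaks, first at the splicing factor gene Sf3b3, in cnc and at CG9667. The BEAF-32 core CGATA, which is contained in DRE, was found in 84 (30.1%), 32.1% of shared and 37.8% of induced-only peaks. It occurred without DRE in 76 of the 84, the first peaks with it being those of kay, CG43401 and ush. GAGAGAG was found in 4 (1.43%, in mld, at Fhos and at CG1092 among others), 2.36% of shared peaks and 2.33% of all windows.

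**Figure D5:**
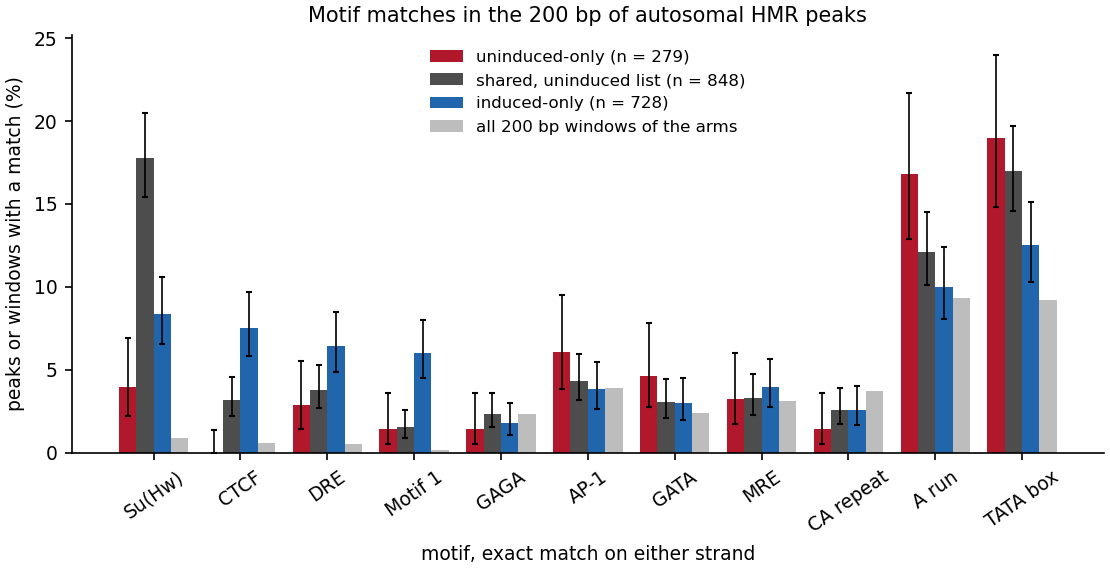
Share (%) of uninduced-only, shared and induced-only autosomal peaks, and of all 200 bp windows of the 4 arms, with an exact match to each motif (bars) and 95% Wilson intervals (lines; none for windows). The Su(Hw) share is 3.94% in uninduced-only and 17.8% in shared peaks.

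The remaining motifs differed from shared peaks by less than 5 points each. The AP-1 site TGANTCA was found in 17 uninduced-only peaks (6.09%), 4.36% of shared and 3.85% of induced-only peaks, a difference from shared of 1.73 points (-1.03 to 5.37), first upstream of the endocytosis gene Rme-8, near the actin gene Act42A and at Fur1. The GATA site AGATAAG was found in 13 (4.66%), 3.07% and 3.02%, a difference from shared of 1.59 points (-0.773 to 4.89), first at CG5708, at the chromosome maintenance gene SMC5 and near CG5122. The core of the metal response element, TGCACAC, was found in 9 (3.23%), 3.30% and 3.98%, beside 3.12% of all windows, first in Csk, which encodes a kinase that inhibits Src, at the autophagy gene Atg2 and at tst. A run of 8 A or T bases on one strand (AAAAAAAA) was found in 47 (16.8%), 12.1% and 10.0%, a difference from shared of 4.70 points (0.106 to 9.94) that was 1.51 points (-4.10 to 7.59) over 400 bp around the centre, first in Src64B and at CG34200 and CG6565. TATAAAA was found in 53 (19.0%), 17.0% and 12.5%, first in ush, near wb and at Bulli, and CACACACA in 4 (1.43%), 2.59% and 2.61%, first near CG41099 and IntS3 and in cic. None of the 12 motifs matched in 105 of the 279 peaks.

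Among all 6-mers present in at least 10% of the uninduced-only peaks, ACAGTG had the highest share relative to all windows and was chosen by that value. It was found on either strand in 62 (22.2%, 17.7 to 27.5), with 100 shared peaks (11.8%, 9.79 to 14.1), 89 induced-only peaks (12.2%, 10.0 to 14.8), 9.20% of the windows upstream of TSSs and 7.44% of all windows. By arm, 20.2% to 24.2% of uninduced-only peaks and 10.6% to 13.1% of shared peaks held it. At TSSs the shares were 20.7% and 14.0%, and away from TSSs 23.9% and 9.55%. Of its 69 matches, 34.8% lay within 50 bp of the centre, a span of about 100 of the 200 bp. The share was 57.8% of 109 matches in shared and 54.2% of 96 matches in induced-only peaks. The next by the same rule were ACTGTA (17.2%, 11.4% of shared peaks), GTAATA (58 uninduced-only against 102 shared peaks), ACAGTA (12.9%, 9.79%) and ATATTA (38.4%, 26.2%), of which ACTGTA and ACAGTA share 5 letters with ACAGTG on one of the strands.

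Annotated transposable elements overlapped 6 uninduced-only peaks (2.15%), against 3.07% of shared, 2.75% of induced-only peaks and 6.40% of all windows. The peaks rest on uniquely mapped reads, a limit in repeats that the windows do not have. Its part in the difference from the windows was not tested. The families were 1360 (2 peaks), Quasimodo, BS, Cr1a, G6 and jockey (1 each), and no telomeric element was among them. The single peak touching Quasimodo, an LTR retrotransposon, also touched a 1360 copy and was the lncRNA:CR45174 peak printed above with its Motif 1 match. The others were in aux (1360), MFS9 (BS) and PH4alphaEFB (jockey) and at lncRNA:CR45221 (Cr1a) and CG1092 (G6). Within 5 Mb of the centromere-proximal end of an arm lay 10.0% of uninduced-only, 15.0% of shared and 9.89% of induced-only peaks, beside 18.2% of all windows, a difference from shared of -4.94 points (-8.88 to -0.279).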

How the data were processed

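The authors mapped reads (single-end, 50 bp) to dm6 (Bowtie2 2.2.9) and kept those that mapped uniquely (SAMtools 1.3.1). They called peaks with HOMER 4.9, which required a ratio of 2-fold to input. They deposited 2 lists with 3 columns of positions (a chromosome, a start and an end), without a score or a count, so read depth is unknown. How the 2 induced libraries entered their list is not given in the sources used here. Overlaps (1 bp or more), distances, genic positions (Ensembl release 115) and exact motif matches on either strand (RefSeq copy of Release 6) came from Python 3.11.15 scripts that used pandas 2.3.3, scipy 1.17.1 and numpy 2.4.6, were tested on simulated lists and were drawn with matplotlib 3.10.9. Classes were set side by side with the 544152 windows of 200 bp of the 4 arms. Members and gene lists were chosen with earlier results of these data known. Peaks were named when they stood among the 10 earliest lines or the 5 smallest or 5 largest gaps, in genes with 2 or more peaks or of a list, among the first 3 matches to a motif, or in an element. Some sequences are not reported here. The windows upstream of TSSs, the central GC difference and the sequences of kis and l(3)80Fj were added after the lists were seen.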

Additional observations from a re-analysis of the deposited data

How the results depend on the processing

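Over 79 alternative values, 68 stayed within the counting error of the reported value or within 1.5 times a reported count, 10 moved further and 1, a difference whose interval had excluded 0, reversed. Of the 68, 9 changed sign, all of them differences whose interval included 0 (the TSS difference without arm 3L, at -2.64 points, and 8 values for Motif 1, GAGA, BEAF-32, the CA repeat, the TATA box and the metal response element). The count of 279 became 78 in the earlier 50% of lines and stayed between 195 and 325 under other overlap rules or without an arm. The TSS share of 52.0% became 19.4% at 100 bp and 61.3% at 500 bp. Its difference from shared peaks, 1.38 points, became -6.23 at 100 bp and -12.6 in the earlier 50% of lines. The intron share of 31.9% became 40.5% when position was read from the centre alone, and its difference from shared peaks stayed between 10.9 and 17.8 points. The GC difference of -2.45 points reversed to 0.165 over 400 bp, where the flanks enter. The element share of 2.15% became 0.358% for a centre inside the element. For motifs, the difference moved to -8.69 points (Su(Hw)) and -5 points (CTCF) in the later 50% of lines and to 9.95 points (TATAAAA) in the earlier 50%. Differences by earlier and later lines were chosen after seeing the data. A stricter score was not run because the lists give none, and no replicate could be left out with 1 list per condition. No paired analysis was possible because a single list stands for either condition and no test was made.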

Other observations

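Soft-masked bases, which the assembly marks as repeats or low-complexity sequence, made up a median of 23.5% of the 200 bp in uninduced-only peaks, 19.0% in shared peaks and 17.5% in induced-only peaks. The observed over expected ratio of CpG dinucleotides had medians of 1.03, 0.950 and 1.03 in the same classes of peaks. A UTR was overlapped by 73 of the 279 uninduced-only peaks.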
